A study of Mus musculus with 6 samples.

Results

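The cytosolic ribosomal proteins are the protein subunits of the ribosome that translates nuclear-encoded mRNA. Members were taken by symbol from the deposited liver table: names with Rpl or Rps before a digit, and Rplp0, Rplp1, Rplp2 and Rpsa, without the S6 kinases and without names marked as pseudogenes. The rule found 49 of the 8390 listed genes, and all 49 passed the filter on low values. They comprised 18 core proteins of the small (40S) subunit, 26 core proteins of the large (60S) subunit, 4 paralogs (Rps27l, Rpl36al, Rpl22l1 and Rpl7l1) and Rps19bp1. The last is a protein that binds Rps19 and is no ribosomal subunit, although its name meets the rule. A list of 79 core subunits held 34 genes that the table does not list, 14 of the 40S and 20 of the 60S subunit. Among them were Rpsa, Rps6, the substrate of the S6 kinases, and Rpl5 and Rpl11, which carry the 5S ribosomal RNA into the large subunit. The way genes were selected for the table was not given in the sources used here, and these 34 were not analysed.

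The samples were livers of C57BL/6 mice, an inbred strain, with RNA read by sequencing. The 3 LV libraries came from mice that received 3e8 transducing units of a lentiviral vector into a vein and were killed 4 h later. The 3 untreated libraries came from mice that received nothing, and because no sham-injected mice were among the samples, the vector cannot be told apart from the injection. The labels give neither age nor sex, and say nothing of where replicates come from, so a p-value speaks only to the spread among these 6 libraries, which may be technical.

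Each ribosome carries a single copy of nearly every subunit protein, and cells keep the output of these genes balanced. Surplus ribosomal proteins are degraded, and free Rpl5 and Rpl11 bind Mdm2 and thereby stabilise p53. The mRNAs of mammalian ribosomal proteins begin with a short stretch of pyrimidines, the 5' terminal oligopyrimidine (TOP) motif, through which the kinase mTOR regulates their translation. Their transcripts are abundant in the liver, which makes most plasma proteins.

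The values are whole numbers in a unit that no label or header names. They look like rounded expression after scaling by depth and by length. They are called deposited values here, and read depth is unknown. Column totals were 497295 to 526009. The vector response was present in each LV library: Ifit1, which binds foreign RNA, had 600, 550 and 425 in LV livers, against 2, 6 and 3 in untreated livers. All 10 listed hepatocyte markers were in the table, and their summed value was 81204 to 93128 in LV livers and 85893 to 110408 in untreated livers. Alb supplied most of that sum, and single markers went both ways. Fgb (mean 6263 in LV livers against 3531) and Hnf4a (220 against 189) were higher in every LV library than in any untreated one. Tat (342 against 482) was lower in every LV library. Male-biased liver genes stood high in LV replicate 3 and untreated replicate 2, with 8 of 10 listed, a summed value of 2214 and 2050 there and at most 638 elsewhere. Selenbp2 was an exception in untreated livers (137, 116 and 132). Female-biased genes, 9 of 10 listed, summed to 725, 664 and 222 in LV livers, against 763, 406 and 1385 in untreated livers. Their sum was thus lowest of each group in the same libraries, although Cyp3a44 was highest there (100 and 160).

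Runs of pyrimidines can be seen near the annotated start sites of part of the members. RefSeq promoters (build GRCm38.p6) were found for 35 of the 49 genes, 34 by symbol and Rps3a as Rps3a1, and the first listed start of each was used. A window of 30 bases was read, 15 on each side of the boundary at the annotated start, so that the start is base 16. An unbroken run of at least 7 C or T on the transcribed strand lay in 17 of 35 windows (48.6%), against 17.4% of 5876 genes of the table with a promoter, 18.5% of all 27025 genes and 16.4% of 61 mitochondrial ribosomal proteins. In Rpl4, Rps15a, Rps27l and Rpl34 the run ended before the annotated start, outside the annotated transcript. In Rps26, Rpl13a, Rpl18 and Rpl22l1 it began after the first annotated base. The rest crossed the start. The windows below show such runs in large-subunit, small-subunit and stalk genes, followed by a pair without a run of that length. Capitals mark the longest run of C or T where it has at least 7 bases.
Rpl7a (chr2:26910792-26910821, + strand): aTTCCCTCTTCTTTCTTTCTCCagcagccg
Rpl27a (chr7:109519180-109519209, + strand): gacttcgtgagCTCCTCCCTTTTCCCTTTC
Rpl15 (chr14:18270972-18271001, - strand): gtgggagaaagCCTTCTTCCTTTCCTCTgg
Rpl14 (chr9:120571502-120571531, + strand): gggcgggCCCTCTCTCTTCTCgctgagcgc
Rpl13a (chr7:45128731-45128760, - strand): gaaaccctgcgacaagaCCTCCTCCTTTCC
Rps18 (chr17:33955651-33955680, - strand): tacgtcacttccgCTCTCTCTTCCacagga
Rps9 (chr7:3704026-3704055, + strand): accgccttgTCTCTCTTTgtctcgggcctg
Rplp2 (chr7:141447636-141447665, + strand): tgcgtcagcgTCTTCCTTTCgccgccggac
Rplp0 (chr5:115559452-115559481, + strand): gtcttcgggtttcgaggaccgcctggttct
Rps15 (chr10:80292416-80292445, + strand): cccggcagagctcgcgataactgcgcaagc
Within the window the run was longest in Rpl7a, with 21 bases. Runs that reach a window edge, as in Rpl27a and Rpl13a, may be longer than shown. Annotated starts can lie some bases from the start used in liver, so a window without a run says only that these letters are not there.

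Other short motifs were searched on both strands of the whole promoter, from 250 bases before to 50 bases after the start. The letters CCGGAAG, a core bound by ETS factors such as GABP, stood in 13 of 35 member promoters (37.1%), in 34.4% of the mitochondrial ribosomal protein promoters, in 19.0% of genes of the table and in 9.12% of all genes. GAAA followed by any 2 bases and a second GAAA, the repeat at the heart of the interferon-stimulated response element, stood in 3 member promoters (8.57%), those of Rpl4, Rps7 and Rpl27a, and in 3.18% of genes of the table. In the 80 promoters found for the 118 genes that LV raised by at least 2 on the log2 scale, that motif stood in 27 (33.8%). GGGCGG, the GC box, was in 68.6% of member promoters and 66.1% of promoters of the table. TATAAA, the TATA box, was in 11.4% of member promoters and 7.30% of promoters of the table. These matches are descriptions of letters and overlap with each other was not removed.

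Levels differed widely between members. The mean deposited value over the 6 libraries, on a scale that appears to be per transcript length, ran from 1.67 for Rps15a to 510.0 for Rplp1, a ratio of 306. A mean of at least 100 was found for 16 members, and 3 members, Rpl21, Rpl15 and Rps15a, lay under 10. Among the highest members were Rplp1, an acidic protein of the stalk that recruits elongation factors, and Rpl8, a 60S protein close to the peptidyl transferase centre (mean 282). Rpl3, which also lies at that centre, averaged 15.7 ± 4.04 in LV livers and 14.3 ± 3.06 in untreated livers (SD, n = 3 each).

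Ribosomal protein genes have many near-identical processed pseudogenes, and the authors' handling of reads that match several places was not given in the sources used here. Levels of single members are therefore uncertain. As a measure of likeness, each 50-base window of the shortest RefSeq-linked coding transcript in GENCODE M21 was looked up in the transcripts of all other genes. In the 44 core members a median of 45.5% of windows occurred in another gene (range 0 to 86.7%). For 33 of the 34 core genes that the table does not list, Fau being left out, the median was 72.0% (16.5 to 98.7%). Rpl10, which joins the subunit late in assembly, had 92.1% and Rpl5 had 93.8%, and neither was listed, whereas Rpl8 had 7.86%. Within the 49 members the share did not follow the level (Spearman rho -0.16 across genes, which are not independent replicates). The deposited transcript models and the read length are unknown, and the part that likeness plays in which genes were listed was not tested.

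**Figure D1:**
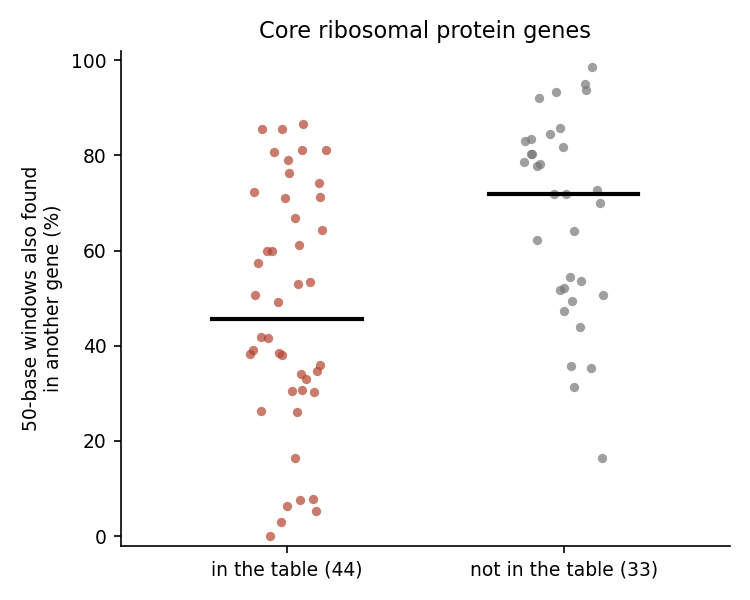
Share of 50-base transcript windows that also occur in another gene (y axis, %), for the 44 core ribosomal protein genes in the table and 33 that are not listed; each point is a gene and each bar a median. The medians are 45.5% and 72.0%, and the ranges overlap.

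No ribosomal protein gene passed the test between LV and untreated livers. The fit was limma on log2(value + 1) over 8386 genes, called at a Benjamini-Hochberg adjusted p below 0.05, and 0 of 49 members were called, whereas 388 of all tested genes were (4.63%). Adjusted p values of members ran from 0.150 to 1. Of all calls 315 were higher (3.76%) and 73 lower (0.870%). Leaving out LV replicate 1 left 174 calls, and leaving out LV replicate 2 left 129. Leaving out untreated replicate 1 left 192, and untreated replicate 3 left 203. No member was called in any of these fits. At an unadjusted p below 0.05 in limma there were 4 members, all lower in LV livers, against 1638 genes of the table (19.5%), of which 866 were lower (10.3%) and 772 higher (9.21%).

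Intervals show how large a change these data could still hold. The 95% interval of the log2 fold change lay between -1 and 1, less than a 2-fold change either way, in 46 of 49 members and in 80.3% of tested genes. It lay within 1.5-fold in 25 members and in 46.3% of tested genes. The exceptions at 2-fold were Rpl29, Rpl30 and Rps24, whose lower bound was -1.01. Log2 fold changes of the other 47 members, without Rpl29 and Rpl30, ran from -0.45 to 0.14. A negative fold change was found for 36 of 49 members (73.5%), against 58.1% of tested genes, and the median was -0.13, against -0.07 over all tested genes. Where the mean reached 100 or more, the median was -0.16 for 16 members and -0.14 for all 635 genes. Of those 16 members 15 had a negative fold change (93.8%), against 70.2% of the 635 genes.

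**Figure D2:**
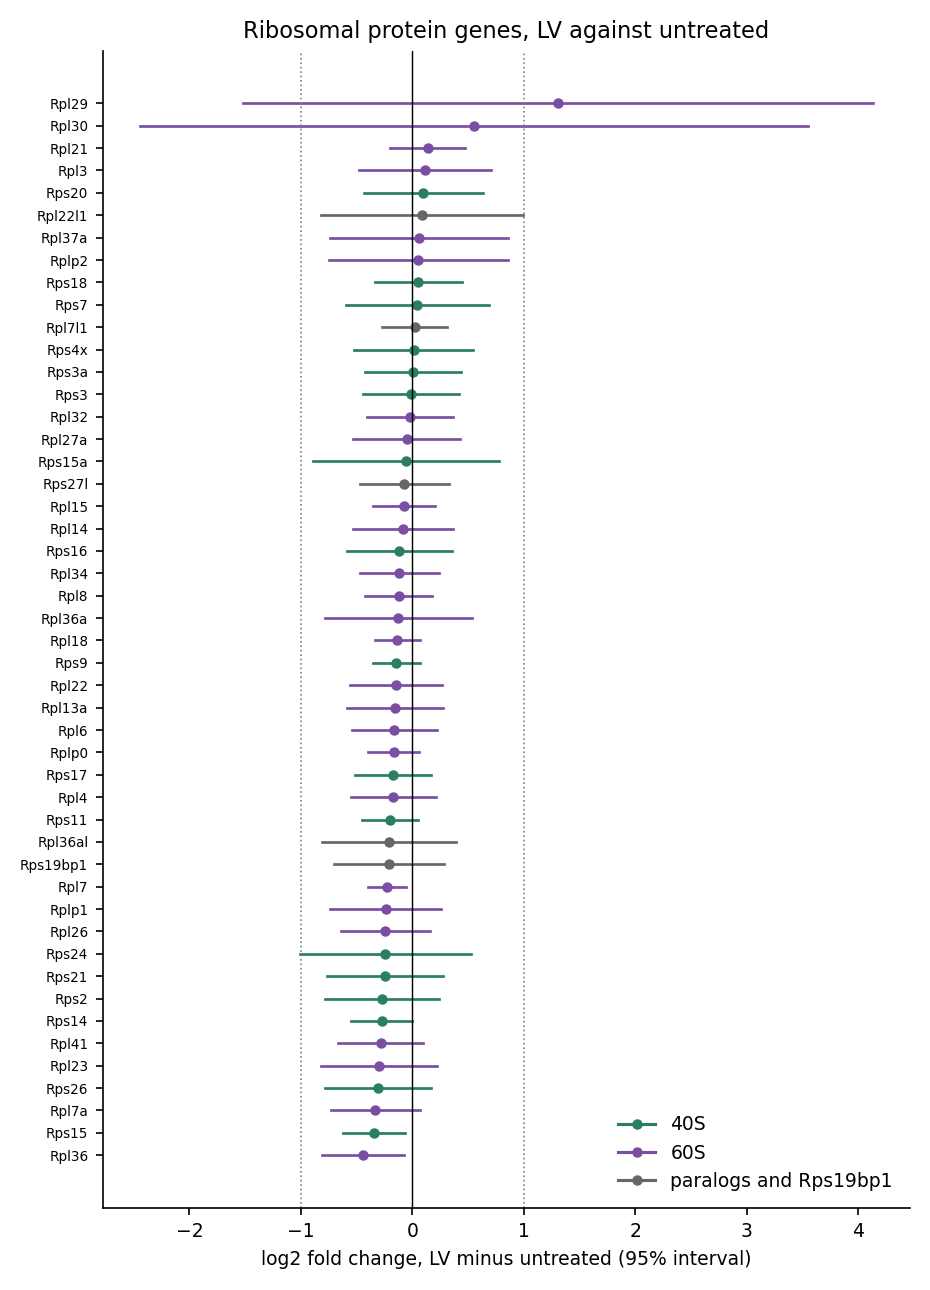
Log2 fold change of LV against untreated livers with its 95% interval from limma (x axis) for each member but 1, which is not shown (y axis), coloured by subunit, n = 3 a group. All but Rpl29, Rpl30 and Rps24 have intervals within the dotted lines at -1 and 1.

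The groups did not overlap in 6 members, each with all LV values below all untreated values: Rps15, Rpl36, Rpl7, Rps14, Rps9 and Rpl18. That is 6 of 49, where 11.0% of all tested genes lay in this way. In no member did every LV value lie above every untreated value, which 8.65% of tested genes showed.

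Rps15 sits in the head of the 40S subunit. It had 243, 215 and 204 in LV livers, against 275, 258 and 308 in untreated livers. Every LV library was lower, but the nearest pair differed by less than the range within either group (log2 fold change -0.34 ± 0.11 SE, 95% interval -0.62 to -0.07, limma adjusted p = 0.177).

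Rpl36, a 60S protein, gave the most negative fold change among the members. Its values were 74, 77 and 96 in LV livers, against 99, 110 and 128 in untreated livers. The groups were 3 units apart at their nearest (-0.45 ± 0.15 SE, interval -0.81 to -0.08, limma adjusted p = 0.188).

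Rpl7, another 60S protein, had the smallest p value of the 49 and the smallest spread. It had 54, 50 and 52 in LV livers, against 60, 61 and 62 in untreated livers. The difference was several times the SD within groups but small in size (-0.23 ± 0.07 SE, interval -0.40 to -0.06, limma adjusted p = 0.150).

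Rps14, a protein of the 40S platform whose loss causes anaemia in people with a deletion of chromosome arm 5q, had 148, 146 and 122 in LV livers, against 174, 155 and 174 in untreated livers. Its limma adjusted p was 0.253. For Rps9, a 40S protein near the mRNA entry, the values were 230, 210 and 198 in LV livers, against 233, 238 and 233 in untreated livers. LV replicate 1 came within 3 units of the untreated libraries. Rpl18 of the 60S subunit had 34, 36 and 36 in LV livers, against 38, 42 and 37 in untreated livers.

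**Figure D3:**
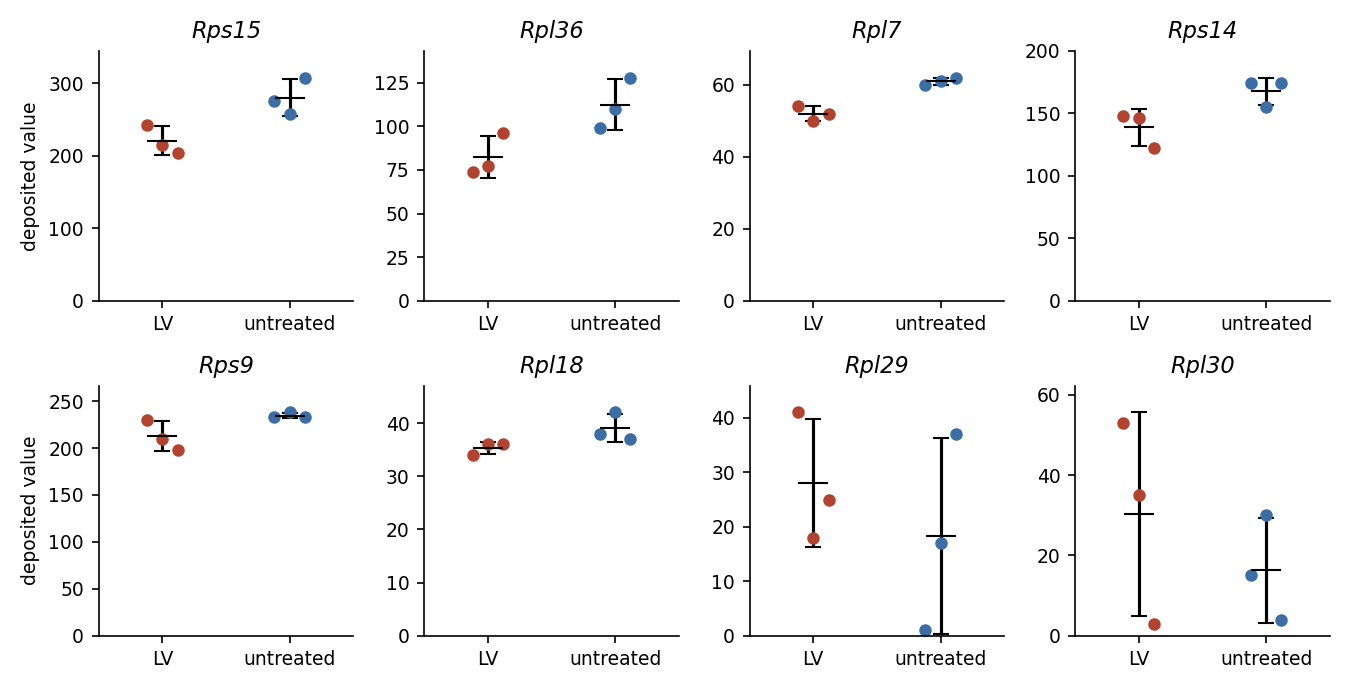
Deposited values (y axis) of the 6 genes whose groups did not overlap and of Rpl29 and Rpl30, in 3 LV and 3 untreated livers; points are libraries in replicate order, and bars are the mean and SD. Rps15, Rpl36, Rpl7, Rps14, Rps9 and Rpl18 separate narrowly, whereas the groups overlap widely for Rpl29 and Rpl30.

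Further members had negative fold changes with overlapping groups. Rpl7a of the 60S subunit had 34, 28 and 26 in LV livers, against 36, 32 and 44 in untreated livers (log2 fold change -0.33 ± 0.16 SE). Rps26, at the mRNA exit of the 40S subunit, had 212, 147 and 162 in LV livers, against 201, 187 and 257 in untreated livers. In both genes LV replicate 1 lay among the untreated libraries.

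Rpl23, a 60S protein that can also bind Mdm2, had 22, 16 and 15 in LV livers, against 18, 21 and 27 in untreated livers. Rpl41, the smallest ribosomal protein, had 104, 97 and 97 in LV livers, against 131, 97 and 140 in untreated livers. Untreated replicate 2 thus equalled the lower LV libraries. Rpl13a, which in human myeloid cells leaves the ribosome after interferon-gamma to silence inflammatory mRNAs, had 192, 144 and 127 in LV livers, against 172, 156 and 181 in untreated livers. LV replicate 1 was the highest of the 6 libraries there, and the interval of its fold change was -0.58 to 0.27.

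The P stalk, which recruits translation factors to the large subunit, has 3 proteins, and all had their highest LV value in replicate 1 and their lowest in replicate 3. Rplp0, its anchor, had 196, 185 and 180 in LV livers, against 228, 193 and 211 in untreated livers. Rplp1 had 587, 427 and 395 in LV livers, against 645, 473 and 533 in untreated livers. Rplp2 had 129, 85 and 64 in LV livers, against 86, 65 and 112 in untreated livers. The groups overlapped for all 3 proteins, and the SD of log2 values within groups was 0.10 for Rplp0, 0.27 for Rplp1 and 0.45 for Rplp2.

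Some members had fold changes near 0. Rps3, at the mRNA entry channel, had 133, 110 and 91 in LV livers, against 126, 98 and 110 in untreated livers, and both groups averaged 111. Rpl32, a 60S protein, averaged 166 ± 31.8 in LV livers and 167 ± 11.5 in untreated livers (SD, n = 3 each). In both genes the LV group had the larger SD.

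The most positive fold changes other than those of Rpl29 and Rpl30 were small. Rpl21 had 7, 5 and 5 in LV livers, against 5 in each untreated liver, where rounding hides any spread. Rpl3 had 20, 15 and 12 in LV livers, against 17, 15 and 11 in untreated livers. Rps20 had 229, 183 and 144 in LV livers, against 185, 140 and 190 in untreated livers, and its interval ran from -0.44 to 0.63.

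Rpl29 and Rpl30 varied far more between livers of the same group than other genes of their level. Rpl29, also known as a heparin-binding protein, had 41, 18 and 25 in LV livers, against 1, 17 and 37 in untreated livers. Untreated replicate 1 had almost none. Rpl30, which besides its place in the 60S subunit binds selenoprotein mRNAs, had 53, 35 and 3 in LV livers, against 15, 30 and 4 in untreated livers. LV replicate 3 and untreated replicate 3 were low, so the low libraries were not the same for the 2 genes.

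The SD of log2 values within groups was 1.61 for Rpl29 and 1.71 for Rpl30. Among the genes whose mean lay within 2-fold of theirs the median SD was 0.19, and only 0.374% of 2943 genes for Rpl29 and 0.339% of 2949 for Rpl30 had a larger one. The next member, Rpl22l1, had 0.51. Their fold changes of 1.31 ± 1.13 and 0.55 ± 1.20 (SE) are uninformative at this spread, with limma adjusted p values of 0.574 and 0.829. Of their 50-base windows 66.8% and 76.4% occurred in other genes, 84 and 17 of them. Members with higher shares, such as Rps18 (86.7%), had an SD of 0.21, and the part of shared sequence in the spread of Rpl29 and Rpl30 was not tested.

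Within the LV group most members were high in the same library and low in the same library. Their summed value was 5358, 4309 and 3963 in LV livers, against 5143, 4690 and 5202 in untreated livers. LV replicate 1 was thus the highest and LV replicate 3 the lowest of all 6, a ratio of 1.35, while untreated livers differed by a ratio of 1.11. As a share of the column total the members took 0.906 ± 0.146% in LV livers and 0.986 ± 0.0420% in untreated livers (SD, n = 3 each), so the difference between the group means was smaller than the SD of the LV group.

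LV replicate 1 had the highest LV value in 45 of 49 members (91.8%), where 27.6% of tested genes, and 37.2% of the 635 genes with a mean of at least 100, showed that. Rpl18, Rpl36, Rps27l and Rpl36al were the exceptions. LV replicate 3 had the lowest LV value in 32 members (65.3%), against 28.7% of tested genes and 39.8% of those 635. In the untreated group replicate 1 was highest in 15 members (30.6%), against 23.5% of tested genes. Untreated replicate 2 was highest in 9 members (18.4%), against 41.4% of tested genes. Untreated replicate 3 was highest in 20 members (40.8%), against 14.4% of tested genes. Among the 635 genes with a mean of at least 100 these untreated shares were 30.7, 36.7 and 30.2%. The members thus departed from all tested genes in both groups, with 1 leading library in the LV group and a more even split in the untreated one. From the 635 higher genes they departed less in the untreated group. The median log2 difference from the untreated mean was 0.10, -0.20 and -0.32 in LV replicates 1, 2 and 3, and lay between -0.03 and 0.02 in the untreated libraries. Over all tested genes these medians were between -0.07 and -0.04 in the LV libraries, and 0, 0.07 and -0.07 in untreated replicates 1, 2 and 3. Relative to all genes, the members therefore lay lower in untreated replicate 2 and higher in untreated replicate 3. Over the 635 genes with a mean of at least 100 the medians there were 0.0051 and -0.010, closer to those of the members.

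**Figure D4:**
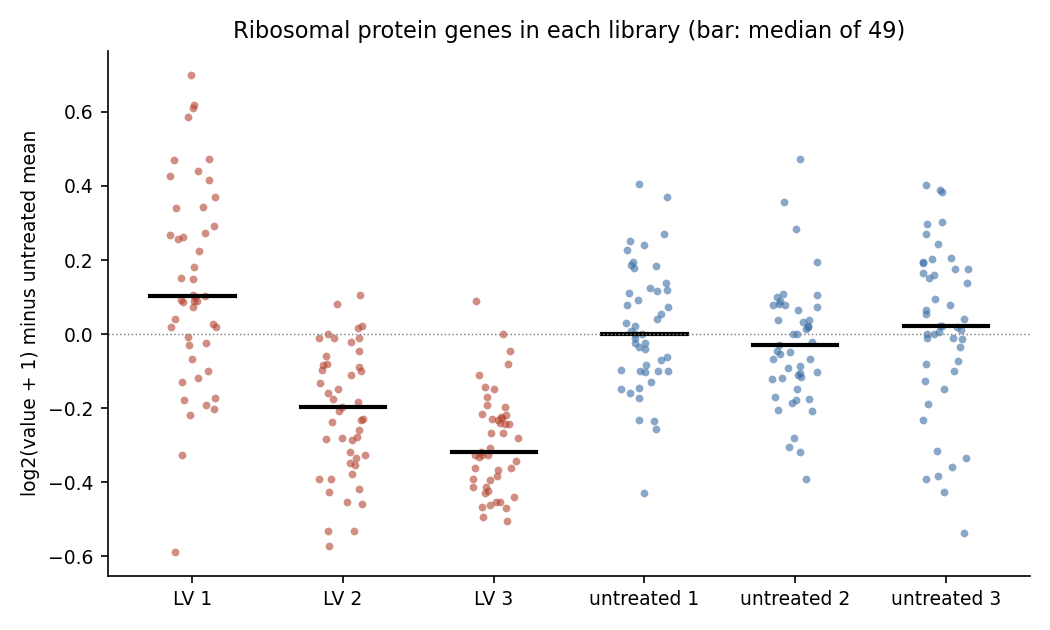
Difference of log2(value + 1) from the untreated mean (y axis) in each of the 6 libraries (x axis); points are 47 genes, Rpl29 and Rpl30 being left out as they run far off this scale, and bars are medians over all 49. The bars stand at 0.10, -0.20 and -0.32 in the LV libraries and between -0.03 and 0.02 in the untreated ones.

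The median fold change therefore rested on which LV library entered. Without LV replicate 1 it was -0.24, with 46 of 49 members negative and 11 at an unadjusted p below 0.05 in limma, all with adjusted p above 0.05. That fit gave a median of -0.06 over all genes, with 5026 of 8382 negative and 1247 at an unadjusted p below 0.05 in limma. Without LV replicate 2 the median of members was -0.08, with 33 negative, against -0.06 over all genes. Without LV replicate 3 it was -0.04, with 29 negative, against -0.07 over all genes with 4920 of 8381 negative, so the members were then no lower than the table. Without LV replicate 3 and untreated replicate 2 together, the libraries with high male-biased genes, it was -0.06, against -0.01 over all genes. Scaling by median of ratios moved the median of all genes from -0.07 to -0.02 and that of the members to -0.08, with 33 negative.

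Markers of other cells also differed between the LV libraries. Of 12 Kupffer cell and macrophage markers 10 were listed, with sums of 135, 315 and 203 in LV livers, against 368, 248 and 344 in untreated livers. Of 8 erythroid markers 3 were listed, and their sums were 558, 1365 and 723 in LV livers, against 1799, 551 and 1352 in untreated livers. Of 9 stellate cell and fibroblast markers 8 were listed, with sums of 123, 118 and 78 in LV livers, against 117, 84 and 122 in untreated livers. Like the ribosomal protein sum, the stellate sum was highest in LV replicate 1 and lowest in LV replicate 3 within the LV group. Its single markers were mixed. LV replicate 1 was the highest LV library in 5 of the 8, and LV replicate 3 the lowest in 5. Col3a1 had 37, 32 and 10, whereas Dcn had 39, 43 and 43 and Reln 6, 11 and 10. The Kupffer and erythroid sums were lowest in LV replicate 1 within the LV group. Of the 10 Kupffer and macrophage markers 8 had a negative and 2 a positive fold change, Cd68 and Marco. Hba-a2 supplied most of the erythroid sum. Alas2 had 15, 22 and 86 in LV livers, against 35, 78 and 25 in untreated livers. The 9 sinusoidal endothelial markers summed to 94, 163 and 151 in LV livers, against 191, 179 and 167 in untreated livers. Of these 6 had a negative and 3 a positive fold change. Lyve1, with a positive one, had 10, 5 and 5 in LV livers, against 3, 3 and 2 in untreated livers. Of 12 lymphocyte markers Ptprc alone was listed, at 1 to 3, and none of 9 neutrophil markers was. The 5 genes taken as a check of the vector response summed to 3650, 2638 and 1963 in LV livers, so LV replicate 1 was highest there as well, against 25 to 47 in untreated livers. The part of any of these in the ribosomal protein values was not tested. In whole liver, fewer cells of a type and less RNA per cell cannot be told apart.

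The ratio between the summed RNA values of the listed 40S and 60S genes varied little across libraries. These sums cover part of the genes of each subunit, and protein was not measured. The 18 genes of the 40S subunit summed to 2437, 1977 and 1789 in LV livers, against 2335, 2104 and 2390 in untreated livers. The 26 genes of the 60S subunit summed to 2749, 2175 and 2004 in LV livers, against 2630, 2378 and 2663 in untreated livers. The ratio of 40S to 60S sums was 0.896 ± 0.0116 in LV livers and 0.890 ± 0.00664 in untreated livers (SD, n = 3 each), with all 6 libraries between 0.885 and 0.909. The ratio thus varied 1.03-fold where the sum varied 1.35-fold. Median fold changes were -0.13 for both subunits, and none of the 18 or 26 genes was called in limma, with 2 of each at an unadjusted p below 0.05.

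**Figure D5:**
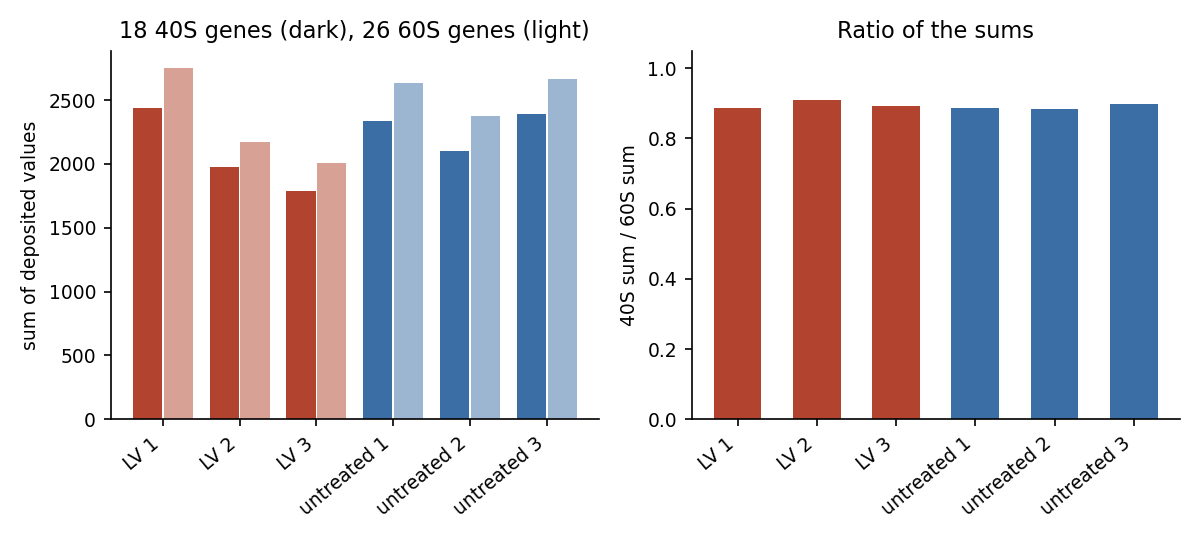
Left, sums of deposited values over 18 40S genes and 26 60S genes in each library; right, the ratio of the 40S to the 60S sum. The sums run from 1789 to 2437 and from 2004 to 2749, and the ratios from 0.885 to 0.909.

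The paralogs did not share the pattern of the LV libraries throughout. Rps27l, a p53-inducible copy of Rps27, had 59, 75 and 79 in LV livers, against 81, 80 and 63 in untreated livers, so LV replicate 1 was the lowest of all. Rpl36al, a close copy of Rpl36a, had 49, 39 and 52 in LV livers, against 48, 75 and 43 in untreated livers. Rpl36a itself had 53, 28 and 30 in LV livers, against 35, 38 and 44 in untreated livers. The high library was thus untreated replicate 2 for the copy and LV replicate 1 for its parent. Rpl22l1 had 32, 18 and 15 in LV livers, against 22, 25 and 13 in untreated livers. Its parent Rpl22, which binds viral RNA in human B cells, had 35, 27 and 31 in LV livers, against 32, 42 and 30 in untreated livers. Both pairs of groups overlapped. Rpl7l1 was steady at 16 to 20 in LV livers and 16 to 18 in untreated livers. Rps19bp1 had 12, 9 and 8 in LV livers, against 10, 10 and 14 in untreated livers.

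For Gnb2l1 and Ubb, genes of related products, the groups overlapped as well. Gnb2l1, the scaffold Rack1 on the head of the 40S subunit, had 309, 260 and 222 in LV livers, against 303, 271 and 297 in untreated livers, again with LV replicate 1 high and LV replicate 3 low. Ubb, a ubiquitin precursor without a ribosomal part, had 264, 262 and 251 in LV livers, against 296, 265 and 240 in untreated livers.

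Among the factors that work with ribosomes, few genes were called. Of 35 listed initiation factors 1 rose and none fell (median log2 fold change -0.02). That gene was Eif1a, which promotes scanning for the start codon, with 43, 33 and 29 in LV livers, against 13, 16 and 11 in untreated livers (1.33 ± 0.20 SE, limma adjusted p = 0.0259). Its groups were well apart, but the call rested on single libraries: leaving out LV replicate 3 kept it (limma adjusted p = 0.0437), whereas leaving out any other library ended it (0.0503 to 0.12). Eif6, which keeps unfinished 60S subunits from joining 40S subunits, had 74, 67 and 43 in LV livers, against 40, 41 and 36 in untreated livers. It missed the threshold (limma adjusted p = 0.213, and 0.0266 without LV replicate 3).

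Of 9 listed elongation and termination factors 0 were called, with 1 at an unadjusted p below 0.05 in limma. That was Eef2k, the kinase that inhibits elongation factor 2, which had 2, 3 and 4 in LV livers, against 6 in each untreated liver (limma adjusted p = 0.0825, and 0.0407 without LV replicate 3). Its target Eef2 had 618, 643 and 661 in LV livers, against 726, 734 and 714 in untreated livers. Every LV library was lower, and Eef2 had its lowest LV value in replicate 1, where the ribosomal proteins were highest. Of 17 listed further TOP transcripts, a list that shares members with these, 0 were called, with a median of -0.11.

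Genes of ribosome assembly had a median fold change near 0. Of 61 listed assembly factors 0 were called in limma, 2 were higher and 0 lower at an unadjusted p below 0.05, and 24 had a negative fold change (median 0.0034). Their sums were 858, 766 and 730 in LV livers, against 695, 859 and 766 in untreated livers, the same order of LV libraries as in the subunits. LV replicate 1 was the highest LV library in 31 of the 61 and LV replicate 3 the lowest in 27. Of 10 listed genes of RNA polymerase I and ribosomal DNA factors 0 were called and 1 was lower at an unadjusted p below 0.05 in limma, Polr1d. Of 10 listed rescue and quality control genes 0 were called, and 1 reached an unadjusted p below 0.05, Pelo, which dissociates stalled ribosomes, with 26, 26 and 20 in LV livers, against 7, 16 and 14 in untreated livers (limma adjusted p = 0.177). Of 23 listed partners of the nascent chain 0 were called or reached an unadjusted p below 0.05.

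The mTOR and S6 kinase list had 15 listed genes, of which 1 rose and 0 fell. At an unadjusted p below 0.05 in limma there were 4 of the 15, 1 higher and 3 lower, against 19.5% of tested genes. Rps6kc1, a protein related to the S6 kinases and kept out of the member rule, had 8, 6 and 7 in LV livers, against 4, 3 and 3 in untreated livers (log2 fold change 0.89 ± 0.14 SE, limma adjusted p = 0.0327, and from 0.0526 to 0.123 with any single library left out). Rps6ka1, a kinase of the p90 family that phosphorylates Rps6, had 2, 6 and 5 in LV livers, against 10, 10 and 9 in untreated livers. Its groups did not overlap, with a limma adjusted p of 0.157. Of 8 listed genes of a list on p53 and free ribosomal proteins 1 rose, Trp53 itself, with 21, 22 and 20 in LV livers, against 14, 13 and 12 in untreated livers (0.65 ± 0.09 SE, limma adjusted p = 0.0191). The call held when LV replicate 3 or untreated replicate 1 was left out (limma adjusted p = 0.0403 and 0.0461) and ended when any other library was (0.0573 to 0.102). Its target Cdkn1a, an inhibitor of the cell cycle, had 8, 11 and 6 in LV livers, against 5, 1 and 2 in untreated livers and was not called (limma adjusted p = 0.156). Mdm2 had 13, 12 and 12 in LV livers, against 9, 11 and 8 in untreated livers, and was not called either (limma adjusted p = 0.193). At an unadjusted p below 0.05 in limma there were 4 of the 8 genes, 3 higher and 1 lower, against 19.5% of tested genes. These are mRNA values, and p53 protein was not measured. Rpl5 and Rpl11 are not listed, and the part of free ribosomal proteins was not tested. Sesn1, another p53 target that restrains mTOR and stands on both lists, had 3, 4 and 5 in LV livers, against 8, 7 and 7 in untreated livers. It was lower in every LV library but was not called (log2 fold change -0.75 ± 0.17 SE, limma adjusted p = 0.0754, and 0.0457 without LV replicate 3).

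The mitochondrial ribosomal proteins, which serve the separate ribosome of that organelle, were all within the filter. Of 70 genes 0 were called in limma, 2 were higher and 4 lower at an unadjusted p below 0.05, and the median fold change was -0.08. Set against the mean of untreated livers, their medians by LV library were -0.01, -0.06 and -0.12, a narrower spread than that of the cytosolic proteins, and LV replicate 1 was the highest LV library in 38 of 70. The median SD of log2 values within groups was 0.14 for mitochondrial and 0.23 for cytosolic ribosomal proteins, against 0.21 over all tested genes. These are descriptions, and the difference between the lists was not tested.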

How the data were processed

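RNA sequencing values of 3 LV and 3 untreated mouse livers came from 1 deposited table, with columns matched to samples by description. Libraries were made with a TruSeq RNA kit from QIAzol extracts, per the labels' protocols. The submitters' processing notes name the build mm9. Aligner, annotation, counting and strand use were not given in the sources used here. Values deposited by the authors were treated as a score: judging by their range and sums they are normalized and rounded whole numbers, so no count model was used. Kept were 8386 of 8390 genes, those reaching 1 in 3 or more libraries. The group difference of log2(value + 1) was tested two-sided with limma 3.58.1 (R 4.3.3, intensity trend), with p-values adjusted over all 8386 genes by Benjamini-Hochberg. Fold changes on this scale understate those of low genes. The fit was tested on simulated data. Members and gene lists were chosen with earlier results of these data known. Values in every library are given for members without overlap, the 5 smallest p, the 6 largest fold changes of either sign, and a fixed set; companion lists name called genes and some of the 4 with the smallest p. Windows of 50 bases were counted in GENCODE M21 transcripts with Python 3.11.15. The transcripts used for Rps15a and Rps20 have 5179 and 3706 bases, which lowers their shares. Alternatives were no filter, a mean of at least 5, a pseudocount of 0.1, 3 other scalings, no intensity trend, a replicate block, and fits with 1 library, or LV replicate 3 and untreated replicate 2, left out. Results of 2 genes of these lists are not reported here.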

Additional observations from a re-analysis of the deposited data

How the results depend on the processing

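No member was called under any of the 15 alternative fits, nor with core subunits only, and the smallest adjusted p of a member under an alternative was 0.0714 (limma). Calls over all genes numbered 129 to 429 with single libraries left out, against 388 with all 6. The median fold change of members stayed negative throughout, from -0.24 to -0.041 with single libraries left out, and was -0.075 with median-of-ratios scaling. With LV replicate 3 and untreated replicate 2 both left out, the median was -0.057 and 442 genes were called; the cause was not tested. In 22 of 49 members the fold change changed sign under at least 1 alternative, none of them called. Same-numbered samples gave correlations of deviations of 0.28, -0.47 and -0.34 for numbers 1, 2 and 3, so not every sample correlates best with its own number. With the replicate block 156 genes were called, of which 0 were members. Rounding limits members with values under 10.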
